A study of Mus musculus with 5 samples.

Results

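The genes described here were the core circadian clock genes, namely *Clock*, *Npas2*, *Arntl*, *Per1*, *Per2*, *Per3*, *Cry1*, *Cry2*, *Nr1d1* and *Dbp*. They were taken by name from the table of mRNAs bound to ribosomes of *Drd2*-expressing neurons of the mouse central amygdala (CeA), and 10 of 10 were found among its 15093 genes. All had reads in every library, and all passed the filter on low values.

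The 5 libraries came from adult Drd2-TRAP mice, in which a *Drd2*-promoter BAC drives Cre and Cre turns on an eGFP-tagged ribosomal protein (L10a) from the *Rosa26* locus. Translating ribosome affinity purification (TRAP) then pulls the tagged ribosomes and their mRNAs out of the tissue, so that cells with a history of Cre expression are sampled rather than cells selected for *Drd2* at the time of collection. Both groups carried the same transgenes. The fear conditioned (FC) group had 3 libraries and the home cage (HC) group had 2, and each library pooled bilateral CeA punches from 3 animals. The GEO labels place collection 2 h after fear extinction and name the controls home cage animals, and the study's methods also call the controls HC. Its account of the experiment instead places collection 2 h after conditioning and describes controls that heard the tone without shock. Sex and the time of day of collection were not given in the sources used here. Both groups are assigned the same collection point of 2 h, which does not give the time of day. The labels do not make clock time a variable of the design.

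The core clock of mammals is a feedback loop that turns once a day. CLOCK, or its paralog NPAS2, pairs with BMAL1 (encoded by *Arntl*) on E-box sequences and switches on the *Per* and *Cry* genes, whose proteins return to the nucleus and repress CLOCK-BMAL1. In a side loop REV-ERBα (*Nr1d1*) represses *Arntl*, and DBP carries the rhythm to D-box genes. Transcripts of *Arntl* are known to peak in opposite phase to those of *Nr1d1* and *Dbp* in most tissues. Outside the suprachiasmatic nucleus, brain regions including the amygdala carry rhythms of their own. *Per1* is in addition a known target of neuronal activity through CREB and of glucocorticoid hormones.

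Values were taken as reads per 1000000 (CPM) after the authors' scaling between libraries. Reads on genes ran from 19605318 to 27937520 per library, and 3 reads corresponded to 0.10 to 0.158 CPM. HC replicate 2 stood apart. It had 2681 of the 15093 genes at 0 reads, against 976 in HC replicate 1 and 159 to 349 in the FC libraries. The biological coefficient of variation was 1.23 within the HC group and 0.238 within the FC group. Summed markers of several cell types also differed between the groups, while those of microglia overlapped. Summed striatal projection neuron markers, *Drd2* included, were 23836 to 26580 CPM in FC and 9742 and 16103 CPM in HC, mostly *Penk*. Of these markers, 11 of 12 had a higher mean log2 level in FC. The exception, *Gad2*, had 435 to 481 CPM in FC and 657 and 671 CPM in HC. *Drd2* itself ran from 326 to 555 CPM in FC and was 128 and 262 CPM in HC. Summed choroid plexus markers were 58.1 to 111 CPM in FC and 1022 and 1415 CPM in HC, mostly *Clic6* in FC and *Ttr* in HC. *Folr1*, *Kcnj13*, *Aqp1* and *Kcne2* were each at 0 in at least 1 FC library. In HC replicate 2, *Otx2* and *Aqp1* were at 0, and *Folr1* and *Kcne2* had 1 read each. The groups of *Clic6* overlapped. Astrocyte markers summed to 866 to 1064 CPM in FC and to 2198 and 2920 CPM in HC, oligodendrocyte markers to 1258 to 2669 and to 2734 and 5320 CPM. The markers of pallial neurons summed to 50.1 to 205 CPM in FC and to 369 and 309 CPM in HC. Those of microglia summed to 61.3 to 118 CPM in FC and to 127 and 107 CPM in HC. Those of endothelium summed to 18.7 to 46.1 CPM in FC and to 68.9 and 194 CPM in HC. In HC replicate 2, *Ly6c1* held 150 of the 194 CPM. The part of these cell types in the values of the clock genes was not tested, and a change in the number of cells of a type cannot be told apart from a change in RNA per cell.

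The motifs through which the loop closes can be read in the promoters of several of these genes. The RefSeq promoter table (GRCm38.p6, 250 bases before and 50 bases after each start site) had 13 promoters for 9 of the 10 genes, with none for *Per2*. Motifs were searched on both strands as the E-box CACGTG, the E-prime box CACGTT, the D-box TTATGTAA, the ROR element (RORE) and the cyclic AMP response element TGACGTCA. They occurred in 7.15%, 4.68%, 0.938%, 2.46% and 1.79% of all 32851 promoters of that length. At least 1 motif was found in 6 of the 13 promoters, which belonged to 6 of the 9 genes, against 15.9% of all promoters. *Per1* had an E-box 166 bases before a start site, and *Nr1d1* an E-prime box 28 bases before its own. The stretches before the start of *Cry1*, *Cry2* and *Per3* are printed because these genes had both a motif there and groups that did not overlap. *Cry1* and *Cry2* lay on opposite sides. The groups of *Arntl* and *Dbp* did not overlap either, but *Dbp* had none of these motifs and *Arntl* none before its start. A link between the motifs and the group difference was not tested. Each is given 5′ to 3′ on the strand of the gene, the minus strand, with the motifs in capitals (AACGTG is the E-prime box on the other strand).
Cry1, chr10:85185055-85185304: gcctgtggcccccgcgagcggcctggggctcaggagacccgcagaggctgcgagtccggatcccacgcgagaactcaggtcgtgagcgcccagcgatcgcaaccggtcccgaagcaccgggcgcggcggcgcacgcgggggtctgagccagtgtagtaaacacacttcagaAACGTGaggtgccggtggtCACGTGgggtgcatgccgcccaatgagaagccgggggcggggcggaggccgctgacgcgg
Cry2, chr2:92434070-92434319: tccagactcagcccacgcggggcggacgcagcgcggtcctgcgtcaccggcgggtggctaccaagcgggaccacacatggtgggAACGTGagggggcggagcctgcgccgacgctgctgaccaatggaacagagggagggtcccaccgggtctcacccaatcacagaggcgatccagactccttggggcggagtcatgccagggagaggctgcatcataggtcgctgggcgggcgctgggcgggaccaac
Per3, chr4:151044666-151044915: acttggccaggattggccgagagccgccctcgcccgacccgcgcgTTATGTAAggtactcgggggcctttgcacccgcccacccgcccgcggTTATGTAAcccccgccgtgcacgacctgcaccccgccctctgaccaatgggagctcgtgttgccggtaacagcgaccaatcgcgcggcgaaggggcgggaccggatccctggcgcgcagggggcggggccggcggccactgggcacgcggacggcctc
*Cry1* held an E-prime box 79 bases and an E-box 60 bases before its start, *Cry2* a single E-prime box 166 bases before, and *Per3* a pair of D-boxes 205 and 158 bases before. The fourth sequence is a 30-base window around the RORE of *Arntl*, the kind of element that REV-ERBα and the ROR activators share, on the plus strand.
Arntl, chr7:113207528-113207557: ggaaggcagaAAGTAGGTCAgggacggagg
Its match lay 28 bases after 1 of the annotated start sites. A match is a description of these letters, and factor binding was not measured here.

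Per kilobase of the gene length deposited with the table, *Dbp* had the highest level, with a mean over the 5 libraries of 42.2 CPM per kb and a range of 25.9 to 54.6. *Cry2* (24.2, range 18.4 to 29.1), *Cry1* (20.2, 11 to 33.0), *Nr1d1* (19.1, 14 to 24.3), *Arntl* (17.7, 0.599 to 32.2) and *Npas2* (17.2, 11.8 to 26.5) followed on the same scale. *Per2* (5.01, 3.58 to 9.36), *Per1* (4.33, 2.01 to 6.37), *Clock* (2.92, 1.97 to 4.45) and *Per3* (2.13, 0.907 to 5.82 CPM per kb) were lower. The order held in every library at a single step, that from *Npas2* down to *Per2*, which differed by 1.82 ± 0.86 on the log2 scale (SD, n = 5). Between *Dbp* and *Cry2*, *Per1* and *Clock*, and *Clock* and *Per3*, the first of each pair was higher in 4 of 5 libraries. The neighbours from *Cry2* to *Npas2*, and *Per2* and *Per1*, were higher in only 2 or 3 of 5, so their order did not exceed the spread between libraries. *Npas2* made up 83.1% to 88.2% of the summed *Clock* and *Npas2* level per kb in all 5 libraries. NPAS2 is the forebrain paralog of CLOCK, and in these purified mRNAs its transcript was the more abundant of the pair, with the caveat that the deposited length of *Clock* (13508 bases) is long beside that of *Npas2* (4766 bases). Without division by length *Npas2* was again above *Clock* in each library, by 0.77 to 1.38 on the log2 scale of CPM + 1.

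**Figure D1:**
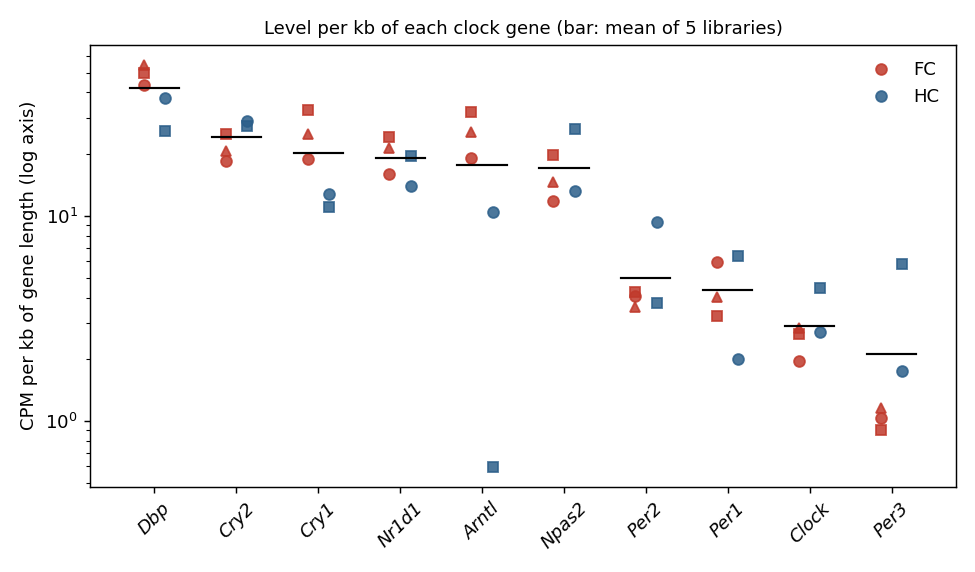
Level of each core clock gene in CPM per kb of deposited gene length (log axis), with circles, squares and triangles for replicates 1, 2 and 3, FC in red, HC in blue and a bar for the mean of 5 libraries. The genes fell into an upper set from *Dbp* to *Npas2* and a lower set from *Per2* to *Per3*, and the HC replicate 2 point of *Arntl*, at 0.599 CPM per kb, lay far below its own gene's others.

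The question of the study was which mRNAs of these neurons differ after fear conditioning. Among the core clock genes, the CPM values of *Arntl*, *Cry1* and *Dbp* were higher in each FC library than in either HC library, and those of *Per3* and *Cry2* were lower. The groups overlapped for *Clock*, *Npas2*, *Per1*, *Per2* and *Nr1d1*. Thus 5 of 10 genes had groups that did not overlap, against 36.4% of the 13560 genes tested, 3 higher (20.2% of all genes) and 2 lower (16.1%). No core clock gene passed the test (limma on log2(CPM + 1), a Benjamini-Hochberg adjusted p under 0.05 together with a log2 difference of more than 0.5 in either direction), and of all genes 0% did. At an unadjusted p under 0.05, limma gave 4 of 10 core clock genes and 16.8% of all genes, with 3 higher (9.49% of all genes) and 1 lower (7.32%). DESeq2 and edgeR's quasi-likelihood test, run on the recovered reads, also called 0 of the 10, where DESeq2 called 7.5% of all genes and edgeR 0%. Log2 fold changes were positive for 5 genes and negative for 5, with a median of -0.04 against 0.08 over all genes, and adjusted p-values by limma ran from 0.223 to 0.854.

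The gap between the HC libraries was wider than the range of the FC libraries in 7 of the 10 genes, all but *Cry1*, *Cry2* and *Nr1d1*. Over all genes tested the median HC gap was 1.08 and the median FC range 0.443 on the log2 scale. The median HC gap was thus also the larger over all genes. The share of all genes with a wider HC gap was not computed, so the 7 of 10 cannot be set against it. Leaving out either HC library leaves that group with 1 sample, which is then assumed to vary like the FC libraries. Such values are given below for core clock genes that pass the test or change sign. For the other lists they are given for only some genes. Without HC replicate 1, 5 of the core clock genes were called, and without HC replicate 2, 2 were. In the same settings 58.7% and 24.8% of all genes were called (7956 and 3361 of 13560).

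**Figure D2:**
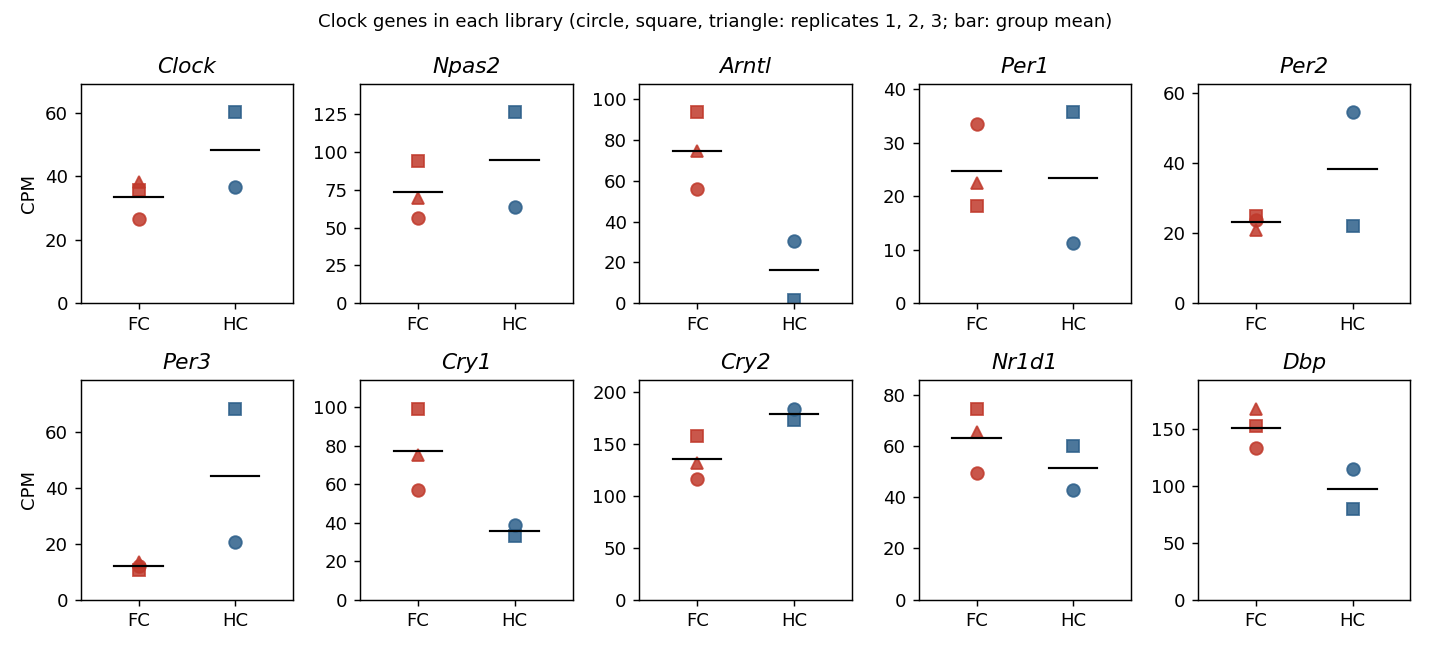
CPM of each core clock gene in the 3 FC and 2 HC libraries, 1 panel per gene with its own axis from 0, with circles, squares and triangles for replicates 1, 2 and 3 and a bar for the group mean. The FC points of *Per2* and *Per3* were close together while the HC points were far apart, and *Cry1*, *Dbp* and *Arntl* had each FC point above each HC point.

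In the activating limb, *Arntl* (ENSMUSG00000055116), the partner without which the loop stops, had 55.9, 93.6 and 74.9 CPM in FC replicates 1, 2 and 3, and 30.4 and 1.74 CPM in HC replicates 1 and 2. The FC libraries were all higher than both HC libraries, and the HC libraries were themselves 17.5-fold apart. The lowest value rested on 33 reads and the next on 911, so both were above the level of 3 reads. The log2 fold change, FC against HC, was 3.00 (SE 0.98, 95% interval 0.63 to 5.37, limma adjusted p = 0.234), the largest in size of the 10 genes. The exact permutation test gave p = 0.1, the smallest that 3 against 2 libraries allow. *Arntl* ranked between the 74.5th and 82.7th percentile of all genes in FC, and at the 58.8th and 29.5th percentile in HC. Its size depended on HC replicate 2. Without that library the log2 fold change was 1.24 (limma adjusted p = 0.0288), and without HC replicate 1 it was 4.76 (limma adjusted p = 0.000156). Of 9476 genes with at least 10 CPM in HC replicate 1, 8.51% dropped as far as *Arntl* or farther in HC replicate 2. The filter used the level in HC replicate 1 itself, so this share does not stand for all genes tested.

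*Clock* (ENSMUSG00000029238), which encodes the DNA-binding partner of BMAL1, had 26.6, 35.7 and 38.2 CPM in FC and 36.6 and 60.1 CPM in HC. The groups overlapped, since FC replicate 3 lay above HC replicate 1. The means were 33.5 ± 6.15 (SD, n = 3) and 48.4 ± 16.6 CPM (n = 2), with a log2 fold change of -0.49 (SE 0.36, 95% interval -1.37 to 0.38, limma adjusted p = 0.512). Without HC replicate 1 it was -0.84 (limma adjusted p = 0.0349), and without HC replicate 2 it was -0.14 (limma adjusted p = 0.740). *Npas2* (ENSMUSG00000026077) had 56.1, 94.3 and 69.6 CPM in FC and 63.4 and 126 CPM in HC, and these overlapped too. Its log2 fold change was -0.32 (SE 0.39, 95% interval -1.25 to 0.62, limma adjusted p = 0.699), and it was 0.18 without HC replicate 2. The log2 fold changes of the activating genes therefore did not share a sign, but the 95% intervals of *Clock* and *Npas2* spanned both signs. The values of *Arntl* lay higher in FC while those of both its partners had lower means.

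Among the *Per* genes, whose proteins form the repressing complex, *Per3* was the single one whose groups did not overlap. *Per3* (ENSMUSG00000028957) had 12.1, 10.7 and 13.6 CPM in FC and 20.5 and 68.4 CPM in HC. Each FC library was below each HC library. The HC libraries were 1.69 apart on the log2 scale. Of the 9476 genes with at least 10 CPM in HC replicate 1, 4.01% lay at least as far higher in HC replicate 2. That filter leaves out genes low in HC replicate 1 and high in HC replicate 2, so this share does not stand for all genes tested. The log2 fold change was -1.56 (SE 0.58, 95% interval -2.97 to -0.16, limma adjusted p = 0.264, exact permutation p = 0.1). Without HC replicate 1 it was -2.41 (limma adjusted p = 0.000517), and without HC replicate 2 it was -0.72 and not called, smaller in size than *Per2* (-1.20) and *Per1* (1.03) in that setting.

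*Per1* (ENSMUSG00000020893), the member known to respond to neuronal activity and stress hormones, had 33.6, 18.2 and 22.5 CPM in FC and 11.3 and 35.7 CPM in HC. The HC libraries bracketed all of the FC libraries. Its log2 fold change was 0.24 (SE 0.58, 95% interval -1.17 to 1.65, limma adjusted p = 0.854), and it was -0.55 without HC replicate 1. *Per2* (ENSMUSG00000055866) had 23.6, 24.9 and 20.9 CPM in FC and 54.4 and 21.9 CPM in HC. The FC values lay close together, at 23.1 ± 2.05 CPM (SD, n = 3), and HC replicate 2 fell among them while HC replicate 1 lay above. The log2 fold change of *Per2* was -0.57 (SE 0.47, 95% interval -1.70 to 0.56, limma adjusted p = 0.558). Without HC replicate 2 it was -1.20 (limma adjusted p = 0.0179), and without HC replicate 1 it was 0.072. HC replicate 1 was thus the low library for *Per1* and the high library for *Per2*, so that these paralogs differed between the HC libraries in opposite directions.

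The cryptochromes, the repressors that bind CLOCK-BMAL1 most directly, had HC libraries that lay close to each other. *Cry1* (ENSMUSG00000020038) had 57.0, 99.1 and 75.3 CPM in FC and 38.5 and 33.0 CPM in HC. Every FC library was higher than both HC libraries, and the HC libraries differed little, at 35.8 ± 3.91 CPM (SD, n = 2) against 77.1 ± 21.1 CPM in FC (n = 3). The log2 fold change was 1.06 (SE 0.32, 95% interval 0.28 to 1.83, limma adjusted p = 0.223, exact permutation p = 0.1). It ran from 0.86 to 1.25 when each library was left out in turn, and was called once, at 1.16 without HC replicate 1 (limma adjusted p = 0.0176). *Cry2* (ENSMUSG00000068742) had 116, 158 and 131 CPM in FC and 184 and 173 CPM in HC. All FC libraries were lower than both HC libraries, with means of 135 ± 21.0 (SD, n = 3) and 178 ± 7.76 CPM (n = 2). Its log2 fold change was -0.41 (SE 0.23, 95% interval -0.96 to 0.14, limma adjusted p = 0.406, exact permutation p = 0.2), and it was not called in any setting run.

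*Nr1d1* (ENSMUSG00000020889), the nuclear receptor that represses *Arntl*, had 49.3, 74.5 and 65.5 CPM in FC and 42.8 and 60.0 CPM in HC. The groups overlapped, and the log2 fold change was 0.29 (SE 0.31, 95% interval -0.47 to 1.04, limma adjusted p = 0.655). *Dbp* (ENSMUSG00000059824), the output activator and a direct target of CLOCK-BMAL1, had 134, 153 and 168 CPM in FC and 115 and 79.7 CPM in HC. The FC libraries all lay above both HC libraries, with 152 ± 17.2 (SD, n = 3) against 97.4 ± 25.1 CPM (n = 2). Its log2 fold change was 0.65 (SE 0.26, 95% interval 0.03 to 1.27, limma adjusted p = 0.283, exact permutation p = 0.1), and it was 0.91 without HC replicate 1 (limma adjusted p = 0.0116) and 0.39 without HC replicate 2 (limma adjusted p = 0.230). *Dbp* and *Arntl*, known for opposite daily phases, thus both had higher values in each FC library.

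**Figure D3:**
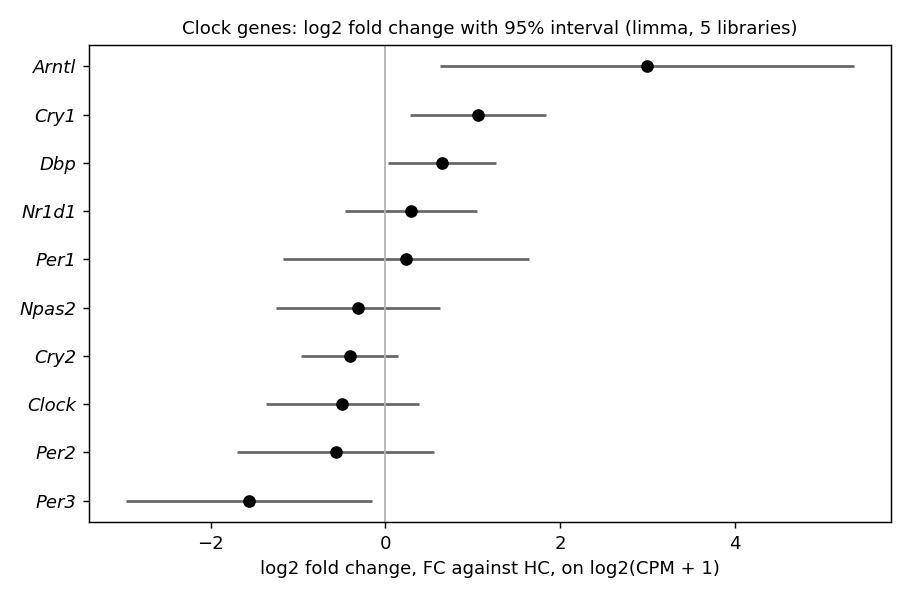
Log2 fold change of each core clock gene, FC against HC, on the log2(CPM + 1) scale, with the 95% interval from limma over the 5 libraries. The unadjusted intervals of *Arntl*, *Cry1* and *Dbp* lay above 0 and that of *Per3* below 0, while none of these genes passed the test after adjustment.

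Ratios between clock genes were taken within each library, where the scaling between libraries enters only through the pseudocount of 1, which matters most for *Arntl* at 1.74 CPM in HC replicate 2. Of the 6 ratios, *Cry1* to *Cry2* had the smallest spread within HC (SD 0.09, n = 2), while in FC *Nr1d1* to *Arntl* had the smallest (SD 0.08, n = 3). On the log2 scale of CPM + 1 the *Cry1* to *Cry2* ratio was -1.01, -0.66 and -0.79 in FC and -2.22 and -2.35 in HC. The groups were separate, and the difference, FC minus HC, was 1.47 (exact permutation p = 0.1, adjusted over the 6 ratios p = 0.15). It stayed between 1.39 and 1.56 when each library was left out. Per kb, *Cry1* made up 50.8%, 56.9% and 54.7% of the summed cryptochrome level in FC, and 30.6% and 28.6% in HC. *Cry1* and *Cry2* were therefore near parity in FC, whereas *Cry2* was the more abundant per kb in both HC libraries. Without division by length, *Cry2* exceeded *Cry1* in all 5 libraries.

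The ratios with *Arntl* set genes of opposite phase against each other. *Per2* to *Arntl* was -1.21, -1.87 and -1.80 in FC and 0.82 and 3.06 in HC on the log2 scale, so that *Arntl* exceeded *Per2* in each FC library and *Per2* exceeded *Arntl* in each HC library. *Nr1d1* to *Arntl* was -0.18, -0.33 and -0.19 in FC and 0.48 and 4.48 in HC, which likewise changed sign between the groups. *Dbp* to *Arntl* was 1.25, 0.70 and 1.16 in FC and 1.89 and 4.88 in HC. The differences were -3.57, -2.71 and -2.35, each with an exact permutation p = 0.1 (adjusted p = 0.15). With a pseudocount of 0.1 they were -3.87, -2.995 and -2.63. They share the values of *Arntl* and are not independent of each other. Without HC replicate 2, in which *Arntl* was lowest, they were -2.44, -0.71 and -0.85.

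The paralog ratio *Npas2* to *Clock* was 1.05, 1.38 and 0.85 in FC and 0.77 and 1.06 in HC, which overlapped (difference 0.18, exact permutation p = 0.5, adjusted p = 0.6). *Per1* to *Per2* was 0.49, -0.43 and 0.11 in FC and -2.17 and 0.68 in HC (difference 0.80, exact permutation p = 0.7). It was -0.62 without HC replicate 1. Within the *Per* family, *Per3* made up 9.32%, 10.8% and 13.2% of the summed level per kb in FC and 13.3% and 36.5% in HC. The first HC value was next to the highest FC value, and the second lay apart.

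**Figure D4:**
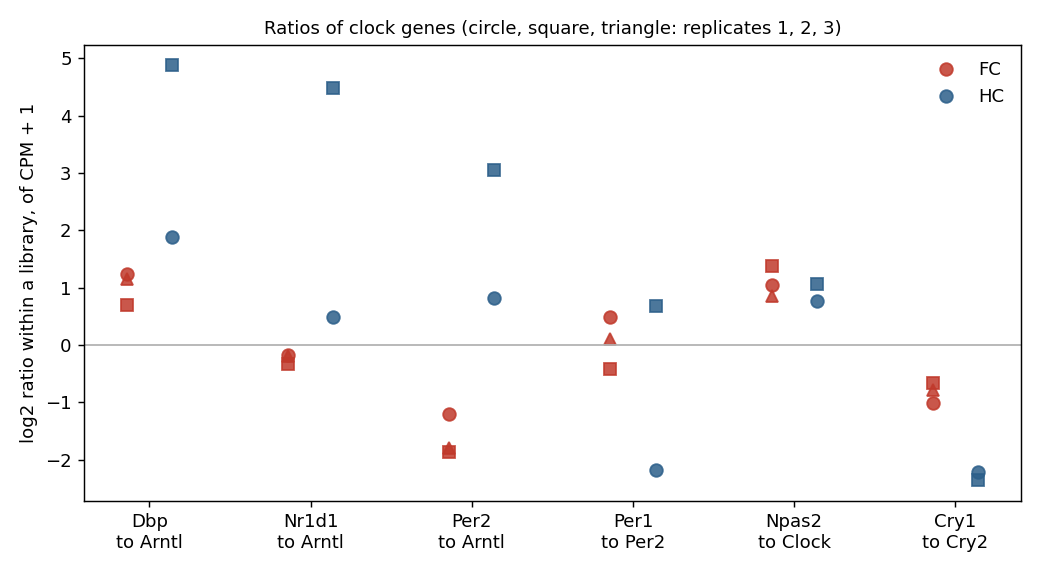
Log2 ratio of CPM + 1 between 6 pairs of core clock genes within each library, with circles, squares and triangles for replicates 1, 2 and 3, FC in red and HC in blue. The FC points of *Cry1* to *Cry2* lay between -1.01 and -0.66, above both HC points, and the 3 ratios to *Arntl* had each HC point above each FC point, with HC replicate 2 far above HC replicate 1.

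The wider clock pathway was followed with 27 further genes, which encode side-loop receptors, D-box and E-box regulators, kinases, ubiquitin ligases and clock-controlled outputs. All were tested, and limma called 0 (0% of all genes). At an unadjusted p under 0.05 there were 5 (3 higher and 2 lower), against 16.8% of all genes. Log2 fold changes were positive for 11 and negative for 16, with a median of -0.07 against 0.08 over all genes. The groups did not overlap for 11 of 27, 5 higher and 6 lower, near the 36.4% of all genes. Of those with higher values in FC, the smallest p-values belonged to *Wee1*, a cell cycle kinase with clock-controlled transcription, *Timeless*, which encodes a partner of the clock repressors, and *Nfil3*, a repressor at D-boxes. *Wee1* had 8.87, 13.8 and 11.4 CPM in FC and 2.00 and 0 CPM in HC (log2 fold change 2.81, SE 0.68, limma adjusted p = 0.200). *Nfil3* had 19.4, 15.8 and 12.3 CPM in FC and 7.28 and 0 CPM in HC (2.53, SE 0.95, limma adjusted p = 0.268). *Timeless* had 3.33 to 3.51 CPM in FC and 0.601 and 0 CPM in HC (1.81, SE 0.53, limma adjusted p = 0.217). All 3 had 0 reads in HC replicate 2, so their fold changes depend on the pseudocount of 1.

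Of those with lower values in FC, *Bhlhe41*, a repressor that competes at E-boxes, had 18.3, 18.2 and 22.0 CPM in FC and 35.5 and 132 CPM in HC. Its log2 fold change was -1.77 (SE 0.57, limma adjusted p = 0.233), and DESeq2 called it at -2.16, the single wider clock gene called by that tool, which called 7.5% of all genes. *Rbm3*, a cold-inducible RNA-binding protein that couples body temperature to the clock, had 34.6, 28.9 and 30.5 CPM in FC and 53.9 and 83.5 CPM in HC (-1.08, SE 0.32, limma adjusted p = 0.217). *Gsk3b*, a kinase that acts on several clock proteins, had overlapping groups (-1.06, SE 0.46, limma adjusted p = 0.318). The relatives of *Dbp* and *Nr1d1* had small differences, with log2 fold changes of 0.22 for *Tef*, 0.12 for *Hlf* and 0.28 for *Nr1d2*, and all of their groups overlapped. *Hlf* was at -0.26 without HC replicate 1 and *Nr1d2* at -0.22 without HC replicate 2. Without HC replicate 1, 10 of the 27 wider clock genes were called (58.7% of all genes), and without HC replicate 2, 5 were (24.8%). *Wee1* and *Timeless* were called in both of these settings.

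**Figure D5:**
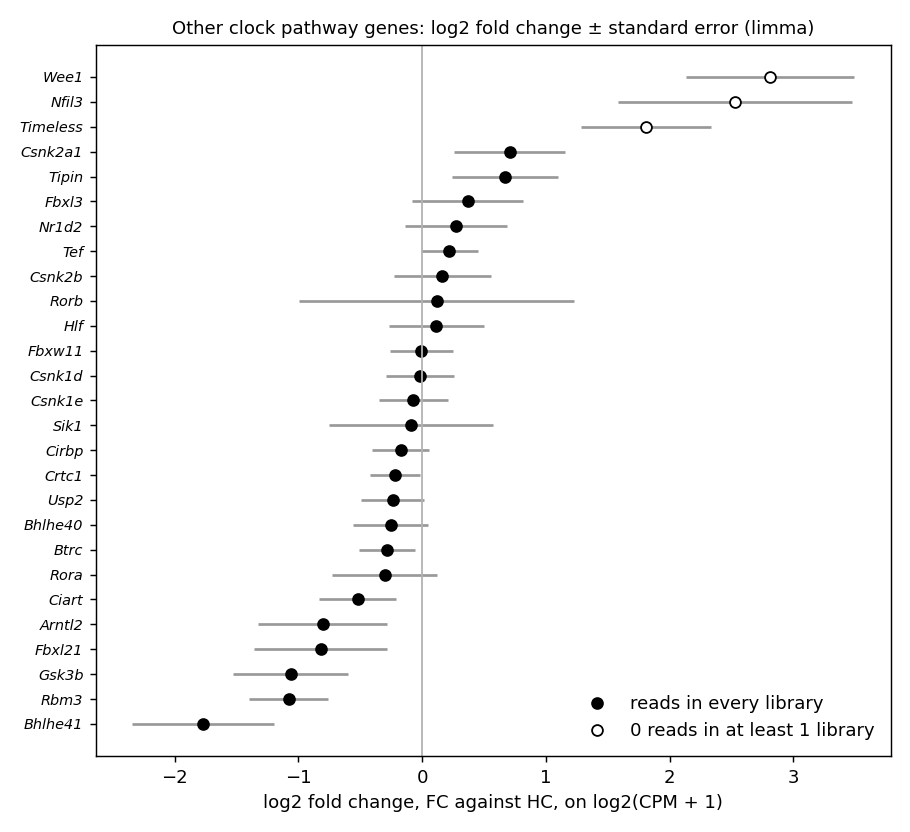
Log2 fold change ± SE (limma) of the 27 wider clock pathway genes, FC against HC, on the log2(CPM + 1) scale, with open circles for genes at 0 reads in at least 1 library. *Wee1*, *Nfil3* and *Timeless* stood at the top, all open circles, and *Bhlhe41* at the bottom, and most of the others lay within 1 of 0.

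Because *Per1* and *Per2* also respond to activity and to glucocorticoids, genes known for these responses were set beside them. Of 13 activity-induced genes limma called 0 (0% of all genes), with 0 at an unadjusted p under 0.05 (16.8% of all genes). The groups did not overlap for 3 of 13, against 36.4% of all genes. In this list 8 had positive and 5 negative log2 fold changes (median 0.14). *Nr4a2*, an orphan nuclear receptor, had 11.7, 40.9 and 4.97 CPM in FC and 1.67 and 2.95 CPM in HC (2.18, limma adjusted p = 0.298). *Egr2* was at 7.15 to 18.2 CPM in FC and at 0 and 6.54 CPM in HC (2.19, limma adjusted p = 0.321), and *Dusp1* had a value of 0.76 with overlapping groups. *Nr4a3* (-0.95), *Npas4* (-1.04) and *Fos* (-0.46) had negative log2 fold changes, and the groups of *Npas4* and *Fos* overlapped. The signs of *Npas4* and *Fos* depended on HC replicate 2. *Npas4* had 0 reads in HC replicate 1 and 423 in HC replicate 2, and was called at -3.31 without the first and at 1.24 without the second (limma adjusted p = 0.000459 and 0.0410). *Fos* was at 0.41 without HC replicate 2. DESeq2 called *Nr4a2* alone, at 3.01, against 7.5% of all genes. Without HC replicate 1, 4 of the 13 were called (58.7% of all genes), and without HC replicate 2, 5 were (24.8%).

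Of 12 glucocorticoid-induced genes limma called 0 (0% of all genes), again with 0 at an unadjusted p under 0.05 (16.8% of all genes). The groups did not overlap for 2 of 12, against 36.4% of all genes. Here 4 had positive and 8 negative log2 fold changes (median -0.35). *Klf9*, a transcription factor induced by these hormones, had the smallest p-value of those with higher values (0.72, limma adjusted p = 0.405). *Fkbp5*, the co-chaperone of the glucocorticoid receptor, was at 60.2, 89.5 and 64.9 CPM in FC and 56.9 and 48.1 CPM in HC (0.42), while *Cdkn1a* had overlapping groups, with 12.2 to 15.0 CPM in FC and 3.01 and 29.1 CPM in HC (0.41). *Cdkn1a* was called in opposite directions, at -1.05 without HC replicate 1 and at 1.86 without HC replicate 2 (limma adjusted p = 0.0145 and 0.00978). The values of *Mt2* (-1.02), *Nfkbia* (-0.48) and *Mt1* (-0.47) were negative. Those of *Mt2* and *Mt1* were -2.07 and -1.29 without HC replicate 1, and 0.038 and 0.36 without HC replicate 2. Without HC replicate 1, 7 of the 12 were called (58.7% of all genes), and without HC replicate 2, 2 were (24.8%).

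Each core clock gene was also matched with the genes whose pattern over the 5 libraries was nearest, measured as the root mean square difference of centred log2(CPM + 1). The closest match of all was that of *Dbp* with *Fut8*, which had 45.9, 52.9 and 58.2 CPM in FC and 40.6 and 27.8 CPM in HC (difference 0.02 on the log2 scale), followed by *Lrrtm4* (0.06). *Cry1* was nearest to *Ap1ar* (0.06), *Rnf6* (0.07) and *Eaf1* (0.08). *Clock* was nearest to *Gpm6a* (0.06) and *Npas2* to *Azin1* (0.05). The nearest match of *Arntl* was *Snx11*, at 25.4, 41.4 and 31.6 CPM in FC and 14.9 and 0.105 CPM in HC (0.11), and *Atg14* and *Pom121* (both 0.17) were likewise at 0.158 CPM or below in HC replicate 2. Among the clock genes themselves, *Clock* and *Npas2* were the nearest pair (0.21) and *Dbp* and *Cry1* were nearest to each other (0.30), while the nearest clock gene to *Arntl* was *Cry1* at 1.41. These are descriptions over 5 libraries, and the genes compared share each library's depth and scaling.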

How the data were processed

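TRAP-seq was done on 5 libraries, 3 FC and 2 HC, each from 3 pooled animals. The pools were separate samples, numbered here in accession order. Per the labels and the study's methods, mRNA from eGFP-tagged ribosomes was amplified with SMARTer and NexteraXT kits and sequenced as paired ends. The submitters' processing notes list the mm8 build and DESeq, and the study's methods name Tuxedo together with DESeq. The aligner by name and version, the annotation and the use of strand in counting were not given in the sources used here.

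The signal deposited by the authors is a normalized signal per gene. From its steps and sums it was read here as a read count per gene divided by a size factor and scaled to near 1000000 per library (sums 932938 to 1042030). It is called CPM here. Whole reads were recovered from the steps of the values, with 100% of values whole within 0.01. The deposited table also gives a length per gene, another quantity that the authors did not describe, and it was used for levels per kb.

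Members were matched by name. The 10 genes and the gene lists were chosen with earlier results of these data known. Genes with a mean of at least 1 CPM (13560) were tested with limma 3.58.1 in R 4.3.3 (trended prior, two-sided) on log2(CPM + 1). A fold change on this scale understates that of low genes. Following the study's cutoffs, a call needed a log2 difference of more than 0.5 in either direction and a Benjamini-Hochberg adjusted p under 0.05. Single values and ratios were compared by exact permutation, two-sided, with 10 ways to group the libraries and a smallest p of 0.1. All core clock genes are named. Of each further list, genes that passed are named, or otherwise the 3 with the smallest unadjusted p in each direction. The log2 fold changes of *Tef*, *Hlf* and *Nr1d2* were added after their values were seen, as relatives of members. For each clock gene the 3 nearest patterns were computed, of which some are printed. *Ciart* was matched by its identifier. A gene of the wider clock list is not reported here.

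Alternatives were a pseudocount of 0.1, other filters, quantile and TMM scaling, an adjusted p under 0.1, no fold change cutoff, a spread of its own for each group, each library left out, and edgeR 4.0.16 and DESeq2 1.42.0 on recovered reads. Scripts were tested on simulated data. Promoters and their coordinates are from RefSeq on GRCm38.p6, a build other than that of the processing notes, and no coordinate of the deposited files was used.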

Additional observations from a re-analysis of the deposited data

How the results depend on the processing

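Under the alternatives, 120 fold changes of core clock genes kept their direction and their side of the threshold, 7 passed the threshold and 3 changed sign. Of the counts of calls, 61 stayed at 0 and 14 went from 0 to 1 or more. Of the ratios, 35 kept their direction and 1 did not, and no exact test of a ratio can pass the threshold in this design. Over all genes tested, 0 were called by limma (2280 at an unadjusted p under 0.05) and 0 by edgeR (2039), but DESeq2 called 1017, of which 501 were higher and 516 lower. DESeq2 called 1 wider clock gene and 1 activity-induced gene. With each library left out in turn, calls ran from 0 to 7956 over all genes (1, *Ttr*, without FC replicate 2), from 0 to 5 for the core clock genes, from 0 to 10 for the wider clock genes, from 0 to 5 for the activity-induced genes and from 0 to 7 for the glucocorticoid-induced genes. All calls from leaving out an HC library rest on a spread taken from the FC libraries alone.

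Log2 fold changes with each library left out ran from -0.84 to -0.14 for *Clock*, 1.24 to 4.76 for *Arntl*, -0.81 to 0.18 for *Npas2*, -0.55 to 1.03 for *Per1*, -1.20 to 0.072 for *Per2*, -2.41 to -0.72 for *Per3*, 0.86 to 1.25 for *Cry1*, -0.53 to -0.31 for *Cry2*, 0.05 to 0.53 for *Nr1d1* and 0.39 to 0.91 for *Dbp*. The sign changed for *Npas2* (0.18 without HC replicate 2), *Per1* (-0.55), *Per2* (0.072) and the *Per1* to *Per2* ratio (-0.62, all without HC replicate 1). Differences of the log2 ratios ran from -3.85 to -0.85 for *Dbp* to *Arntl*, -4.71 to -0.71 for *Nr1d1* to *Arntl*, -4.69 to -2.44 for *Per2* to *Arntl*, -0.62 to 2.23 for *Per1* to *Per2*, 0.03 to 0.32 for *Npas2* to *Clock* and 1.39 to 1.56 for *Cry1* to *Cry2*. The cause of these shifts was not tested.

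Under the other settings no core clock gene changed direction or was called. The lowest adjusted p was 0.0531 for *Per3* and 0.0656 for *Cry1*, both by DESeq2, and with a spread of its own for each group the adjusted p of both was 0.911. The median log2 fold change over all genes was 0.08 with limma and -0.11 with DESeq2. Levels per kb with RefSeq transcript lengths were not run, since the tables used hold none. No paired analysis was possible because the labels give the groups no shared replicate numbers.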

Other observations

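Within the FC group the order FC replicate 2, then 3, then 1 was seen in 5 of the 10 core clock genes and in 22.6% of all genes tested. The highest of the 5 libraries was HC replicate 2 for 4 of the clock genes (31.9% of all genes) and HC replicate 1 for 2. The lowest was HC replicate 2 for 3 of them (43.7% of all genes).

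Some clock genes overlap other genes in the RefSeq annotation, and the use of strand in counting was not given, so shared reads cannot be told apart. *Thra*, the thyroid hormone receptor gene that overlaps *Nr1d1* on the other strand, had 411, 306 and 350 CPM in FC and 316 and 767 CPM in HC (log2 fold change -0.48), against 0.29 for *Nr1d1*. *Sphk2*, which overlaps *Dbp*, had 24.6, 22.0 and 19.9 CPM in FC and 20.6 and 24.6 CPM in HC (-0.03), against 0.65 for *Dbp*. The values of each neighbour were given without a test of their part in those of the clock gene.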
